A study of Mus musculus with 11 samples.

Results

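The comparison set wild-type (WT) mouse neonatal lung fibroblasts of batch 2 against WT fibroblasts of batch 1. The members are the 6 WT libraries among 11 in all, chosen by genotype and by the batch that the labels give: WT 1, WT 3 and WT 4 form batch 1, and WT 5, WT 6 and WT 7 form batch 2. The remaining 5 libraries come from fibroblasts of PAD2KO mice, which lack peptidylarginine deiminase 2, an enzyme that turns arginine in proteins into citrulline; PAD2KO 1, 2 and 3 belong to batch 1 and PAD2KO 6 and 7 to batch 2. All 11 were primary lung cells that had been sorted, and their RNA was sequenced in bulk. The series title speaks of basal and TNF-induced expression, while the labels name no treatment, age in days, strain, sex, passage or sorting gate for any WT library, and give no meaning of batch beyond its number. Whatever differed between the batches, a treatment included, therefore cannot be told apart from the batch. Separate animals or cultures are not stated for the replicates, so the p-values speak of the spread from library to library alone, and part of that spread may be technical. In bulk RNA, fewer cells of a type and less RNA per cell cannot be told apart.

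Levels are given as CPM, a gene's count scaled to the library's total over named genes and not corrected for length. Values after ± are SDs over the 3 libraries of a set, and within a sentence they run in the order WT 1, WT 3, WT 4, then WT 5, WT 6, WT 7. Totals of named genes were 1241875 to 1414438 counts in batch 1 and 962633 to 1378867 in batch 2, the lowest in WT 7. A count of 0 in 1 library allows up to 2.12 to 3.12 CPM (3 counts of the library's total), for counting error only. Libraries of a set were not interchangeable in every respect. The X-linked RNA Xist stood at 577, 12.02 and 8.05 CPM in batch 1 and at 349.6, 328 and 133 CPM in batch 2, while 4 Y-linked genes summed to 13.2, 221 and 192 CPM and to 6.53, 13.9 and 86.2 CPM. WT 1, WT 5 and WT 6 were thus high in Xist and low in Y-linked RNA, WT 3 and WT 4 the reverse, and WT 7 held both; none of the 5 genes of that list passed the test between the sets. WT 7 also carried more RNA of some macrophage genes. In it Lyz2, a lysozyme, reached 159 CPM and Adgre1, the macrophage surface protein F4/80, 43.6 CPM, against at most 45.9 and 3.08 CPM in the other WT libraries. C1qa, C1qb, Tyrobp and Laptm5 were highest in WT 7 too, at 6.23 to 14.5 CPM. Csf1r, Cd68 and Mrc1 were not, at 12.5, 4.16 and 5.19 CPM in WT 7 and up to 13.9, 7.71 and 6.22 CPM in the others.

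Markers of the labelled cell type were present in every library. Vim, Fn1, Pdgfra and the collagen genes were abundant, whereas the lung fibroblast factor Tcf21 (0 to 18.5 CPM) and the proteoglycan gene Lum (1.56 to 12.5 CPM) were scarce. Of 15 epithelial markers 9, Epcam, Cdh1 and Sftpc among them, had 0 counts in all 6 libraries, and 12 endothelial markers summed to 14.5 to 23.9 CPM. Sums of smooth muscle markers (1738 to 2064 CPM in batch 1, 333.5 to 542 in batch 2) and of mesothelial markers (354 to 568 and 78.95 to 151 CPM) did not overlap between the sets; neither did the sum of 18 leukocyte markers (32.2 to 84.8 and 260.4 to 422 CPM). Fibroblast markers summed to 17206 to 23012 and 11644 to 12465 CPM, alveolar fibroblast markers to 1278 to 1351 and 627 to 702 CPM, and Schwann and neural markers, mainly through S100b, to 68.5 to 81.3 and 92.5 to 137 CPM. Each of these sums had a two-sided exact permutation p of 0.1, the smallest that 3 against 3 libraries allow. The fibroblast sum fell mainly through Col3a1 and Col1a1. Vim was at 1304 to 1589 CPM in batch 1 and 1461 to 1813 CPM in batch 2. By edgeR's test (adjusted p under 0.05), 5 of 12 tested fibroblast markers were lower in batch 2 and 0 higher. Of 10 tested alveolar fibroblast markers, 6 were lower and 2, Plin2 and Col13a1, higher. Sums of alveolar myofibroblast (819 to 1007 and 957 to 993 CPM), adventitial fibroblast (1198 to 1434 and 1294 to 1420.1 CPM), pericyte (303 to 322 and 278 to 337 CPM), epithelial (19.4 to 24.7 and 23.9 to 34.8 CPM) and erythroid markers (2.33 to 4.83 and 0.771 to 3.12 CPM) overlapped. Their members still moved singly. By edgeR's test 3 of 6 tested adventitial markers were higher and 3 lower. Of 7 myofibroblast markers 1 was higher and 3 lower, and of 4 pericyte markers 0 and 1. Most of the leukocyte sum in WT 5 and WT 6 came from S100a8 and Cd14: without these genes the sum was 80.1, 36.1 and 23.4 CPM in batch 1 and 44.96, 81.7 and 282 CPM in batch 2. Ptprc, which marks leukocytes at large, stayed between 0.725 and 2.33 CPM, and S100a9 and Cd3e had 0 counts in all 6 libraries.

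Fibroblasts answer tumour necrosis factor and interleukin-1 through the transcription factor NF-kB, which binds kappaB sites and turns on chemokines, cytokines and its own inhibitors, such as the gene of IkBa. Interferons act through transcription factors that bind interferon-stimulated response elements (ISRE). Contractile genes of myofibroblasts and smooth muscle are driven by serum response factor at CArG boxes, a programme that transforming growth factor beta raises and that accompanies the laying down of collagen and elastic fibres as alveoli form in the neonatal lung.

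Promoter stretches of genes from 3 groups, interferon, NF-kB and contractile, are shown, with the motif in capitals. They run 5′ to 3′ from 20 bases before the first match to the base before the annotated start and come from RefSeq on the GRCm38.p6 assembly, whereas the submitters' processing notes name GRCm39. The interferon-induced genes Isg15 (chr4:156200819-156200916, minus strand) and Rsad2 (chr12:26456453-26456592, minus strand) carry the ISRE core, a GAAA block repeated after any 2 bases (GAAA, NN, GAAA), which in Isg15 begins at 3 overlapping places, 78, 72 and 66 bases before the start. In Il6 (chr5:30013050-30013113, plus strand), the gene of interleukin 6, and in Nfkbia (chr12:55492648-55492696, minus strand), which encodes IkBa, the capitals are a kappaB site. In Rsad2 and Nfkbia the motif lies on the opposite strand, so its capitals are the reverse complement. In Myl9 (chr2:156775283-156775463, plus strand), a myosin light chain gene, they are a CArG box.
Isg15: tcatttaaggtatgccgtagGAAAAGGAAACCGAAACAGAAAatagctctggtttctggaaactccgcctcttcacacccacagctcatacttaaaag
Rsad2: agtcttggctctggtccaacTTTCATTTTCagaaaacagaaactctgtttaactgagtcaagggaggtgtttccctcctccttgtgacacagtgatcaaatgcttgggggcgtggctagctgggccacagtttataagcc
Il6: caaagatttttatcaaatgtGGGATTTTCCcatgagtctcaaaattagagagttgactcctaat
Nfkbia: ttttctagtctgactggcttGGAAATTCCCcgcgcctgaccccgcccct
Myl9: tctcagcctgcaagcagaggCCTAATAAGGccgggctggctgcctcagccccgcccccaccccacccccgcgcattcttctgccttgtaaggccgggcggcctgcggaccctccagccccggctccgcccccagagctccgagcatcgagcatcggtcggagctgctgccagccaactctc

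On both strands of the 250 bases before the start, the ISRE core was found in 17 of 36 interferon-stimulated genes with a promoter in the table (47.2%), against 3.12% of 7881 tested genes with one. The kappaB site was found in 14 of 27 TNF and NF-kB response genes (51.9%) and in 10.4% of the tested genes. CArG boxes were found in 6 of 26 contractile genes (23.1%) and in 1.37% of the tested genes; 7 of these 26 also held a kappaB site (26.9%). Among all 32841 promoters of the table the shares were 2.98%, 7.25% and 1.47%. The list shares count every listed gene with a promoter, tested or not, so they and the shares of tested genes are drawn from unlike sets. A match is a string of letters, not a bound site.

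The 2 sets of WT libraries differed widely. By edgeR's quasi-likelihood test, 2260 of 9994 genes (22.6%) had an adjusted p under 0.05 and are the calls of the text, 1188 of them higher (11.9%) and 1072 lower (10.7%) in batch 2, and 3334 had an unadjusted p under 0.05. A log2 fold change of at least 1 in size was reached by 939 of the calls (9.4% of genes tested), 500 higher and 439 lower. CPM ranges of the 2 sets did not overlap for 3715 genes (37.2%). The first principal component of log2 CPM held 63.0% of the variance and separated the sets; the second held 13.2% and set WT 7 apart from WT 5 and WT 6. DESeq2 called 1396 genes, of which 1330 were among the 2260, and offsets from the deposited effective lengths left 1262 calls.

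**Figure D1:**
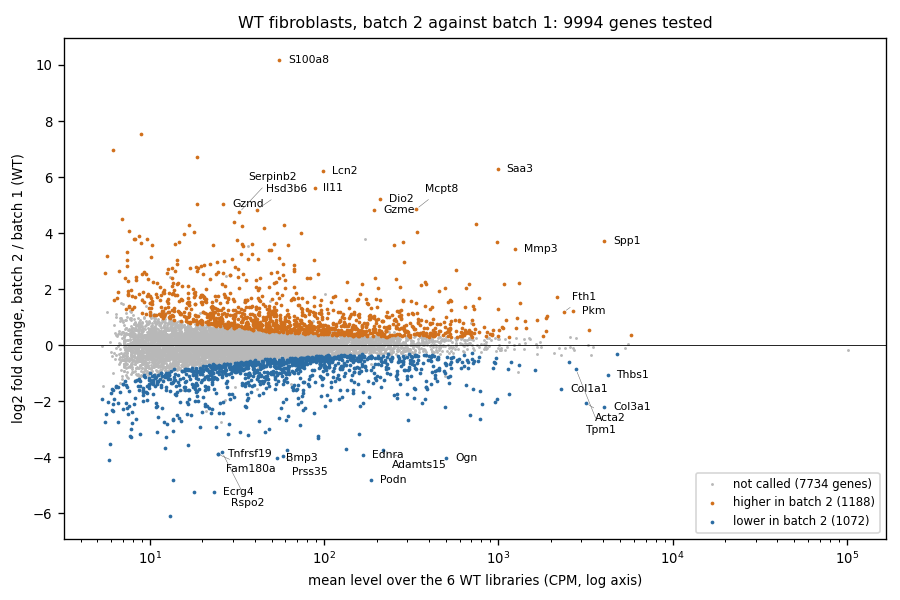
Each point is a gene, with its mean level over the 6 WT libraries in CPM on a log axis and its log2 fold change of batch 2 over batch 1; orange and blue points had an adjusted p under 0.05. Genes named by size of change or of CPM difference are labelled, from S100a8 and Saa3 at the top to Podn and Ecrg4 at the bottom, and Spp1, Thbs1 and Col3a1 lie at the abundant end.

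Among genes with at least 20 CPM on average and no overlap between the sets, the 10 largest rises had log2 fold changes of 4.74 and more. Saa3, an acute-phase serum amyloid, stood at 17.1, 41.7 and 16.1 CPM in WT 1, WT 3 and WT 4 and 1362, 1691 and 2825 CPM in WT 5, WT 6 and WT 7. Every batch 2 library lay above 1000 CPM and every batch 1 library below 50 CPM (log2 fold change 6.28, SE 0.56, adjusted p = 0.00231). Lcn2, an iron-sequestering lipocalin, followed at 0.778, 5.66 and 0.805 CPM in batch 1 and 109.5, 155 and 322 CPM in batch 2 (log2 fold change 6.20, SE 0.96, adjusted p = 0.0146); without WT 1 its adjusted p was 0.0675 and without WT 4 it was 0.0631. S100a8, a calcium-binding alarmin of myeloid cells, had 0 counts in batch 1 and 420 in batch 2, which makes it at least 152-fold higher against a floor of 3 counts over the group of 3 batch 1 libraries; the exact 95% lower bound of the ratio, for counting error, was 123. It reached 137, 130.3 and 64.4 CPM in WT 5, WT 6 and WT 7, and its usual partner S100a9 had 0 counts in all 6. The cells that this RNA came from were not tested. Il11, a cytokine of the interleukin 6 family, went from 3.57 ± 0.969 to 173 ± 70.5 CPM (SD, n = 3 each), a log2 fold change of 5.60 (SE 0.47, adjusted p = 8.41e-05). Dio2, which converts thyroxine to its active form, was at 10.1, 14.8 and 8.05 CPM in batch 1 and 414, 391 and 419 CPM in batch 2 (log2 fold change 5.20, SE 0.17, adjusted p = 7.31e-17). Serpinb2, an inhibitor of plasminogen activators, had 0, 3.53 and 3.22 CPM in batch 1 and 56.6, 65.5 and 66.5 CPM in batch 2 (log2 fold change 4.74, SE 0.36, adjusted p = 2.26e-10).

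Genes of granule proteases rose in the same libraries. Mcpt8, a mast cell and basophil protease gene, was at 23.3, 15.6 and 30.6 CPM in WT 1, WT 3 and WT 4 and 749.9, 826 and 378 CPM in WT 5, WT 6 and WT 7 (log2 fold change 4.85, SE 0.47, adjusted p = 0.00222). Gzme and Gzmd, granzymes otherwise known from cytotoxic lymphocytes, rose by 4.81 and 5.05 (adjusted p = 0.00215 and 0.0245). They are near-identical neighbours between which reads can be split, so each value is uncertain, and Gzmd did not pass without WT 1, WT 3, WT 4 or WT 5 (adjusted p = 0.121, 0.0959, 0.0997 and 0.0533). WT 7 was the lowest of the batch 2 libraries for all 3 genes. Hsd3b6, a steroid dehydrogenase with close paralogs, rose by 4.84, from 6.22 CPM or less to at least 33.2 CPM.

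The 10 largest falls under the same limits lay between -5.25 and -3.75. Podn, a small leucine-rich proteoglycan, stood at 373, 332 and 370.4 CPM in WT 1, WT 3 and WT 4 and 13.8, 15.4 and 7.27 CPM in WT 5, WT 6 and WT 7 (log2 fold change -4.80, SE 0.17, adjusted p = 2.09e-16). Ogn, the related proteoglycan osteoglycin, dropped from 946 ± 124 to 57.01 ± 3.52 CPM (log2 fold change -4.02, SE 0.14, adjusted p = 7.60e-17). The sets were far apart for both. Ednra, the endothelin A receptor of smooth muscle and mesenchyme, was at 353, 287 and 308 CPM in batch 1 and 21.8, 23.1 and 15.6 CPM in batch 2 (log2 fold change -3.92, SE 0.16, adjusted p = 2.20e-15). Ecrg4, a secreted peptide precursor, led these 10 at -5.25 (SE 0.42, adjusted p = 5.62e-10), with 2.18, 0.771 and 0 CPM left in batch 2. Bmp3 fell by 4.03, the Wnt agonist gene Rspo2 by 3.82 and Tnfrsf19 by 3.88, all on the log2 scale. The protease gene Prss35 (by 3.97), Fam180a (by 3.88) and the metalloprotease gene Adamts15 (by 3.75) completed the 10 largest falls on that scale. Lack of overlap was a condition for these rises and falls to be named, so it is no separate result.

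By sheer amount of RNA, the gains were led by Spp1 and the losses by Col3a1. Spp1, the matrix phosphoprotein osteopontin, went from 345, 814 and 575 CPM to 7461, 7096 and 7952 CPM (log2 fold change 3.72, SE 0.36, adjusted p = 0.00234). Mmp3, the matrix-degrading protease stromelysin 1, rose to 1989, 2065 and 2752 CPM from 100.3, 252 and 283 CPM (log2 fold change 3.44, SE 0.45, adjusted p = 0.00849). Pkm, the muscle-type pyruvate kinase gene, and Fth1, the ferritin heavy chain gene, more than doubled, from 1639 ± 118 to 3744 ± 383 CPM and from 1467 ± 124 to 3266 ± 298 CPM (SD, n = 3 each). Col3a1, the type III collagen chain, fell from 5569, 6916 and 7540.2 CPM to 1430.2, 1361 and 1539.5 CPM (log2 fold change -2.19, SE 0.11, adjusted p = 1.63e-13). Thbs1, thrombospondin 1, was among the most abundant mRNAs of batch 1 at 6436, 5546 and 5334 CPM and stood at 2622, 2428 and 3050.0 CPM in batch 2. Acta2, Col1a1 and Tpm1 made up the rest and are described with their groups.

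**Figure D2:**
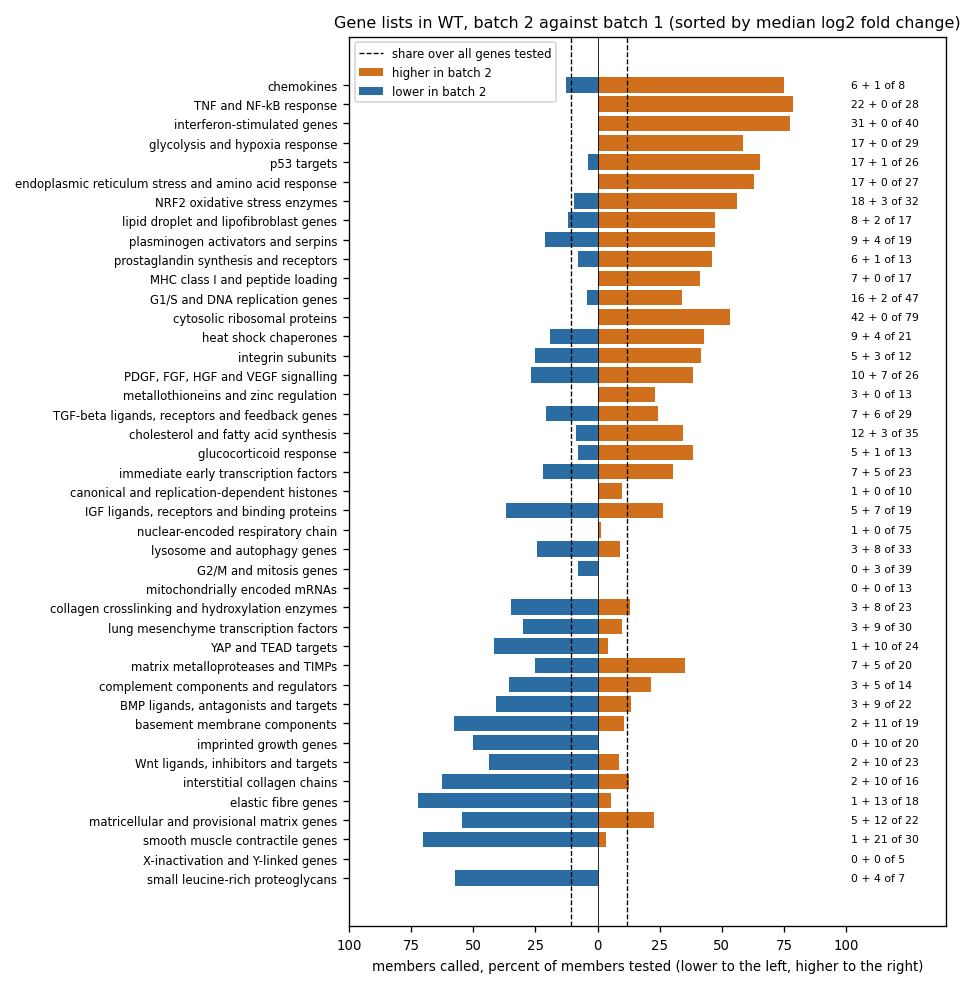
Bars show, for each gene list with at least 5 tested members, the percent of tested members called higher (right, orange) or lower (left, blue) in batch 2; dashed lines mark 11.9% and 10.7%, the shares over all genes tested, and counts stand at the right. Chemokine, TNF and interferon lists reach furthest to the right, with 6 of 8, 22 of 28 and 31 of 40 members, and elastic fibre and contractile lists furthest to the left, with 13 of 18 and 21 of 30.

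Genes of the TNF and NF-kB response were higher in batch 2 as a rule: of 28 tested members 22 rose, 0 fell and 6 did not pass, with a median log2 fold change of 1.24, beside -0.00346 over all genes tested. Ccl2, the chemokine that draws monocytes, stood at 48.2, 96.9 and 70.1 CPM in WT 1, WT 3 and WT 4 and 1258, 1479 and 1511 CPM in WT 5, WT 6 and WT 7 (log2 fold change 4.31, SE 0.19, adjusted p = 2.16e-09). Its neighbour Ccl7 was at 32.7, 43.1 and 41.9 CPM in batch 1 and 549.7, 718 and 665 CPM in batch 2 (log2 fold change 4.05, SE 0.15, adjusted p = 2.09e-16). Il6 went from 3.89, 3.53 and 2.42 CPM to 57.3, 74.01 and 61.3 CPM (log2 fold change 4.26, SE 0.29, adjusted p = 3.86e-11), and Lif, a related cytokine, from 7.78, 12.02 and 8.86 to 101, 107 and 136 CPM (log2 fold change 3.57, SE 0.22, adjusted p = 5.29e-12). In each of these genes the lowest batch 2 library was several times above the highest batch 1 library. Of 22 listed chemokine genes 8 had enough counts to be tested. Among these 6 rose and 1 fell, beside 11.9% and 10.7% of all genes tested. The neutrophil attractants Cxcl1 and Cxcl5 rose by 3.39 and 2.65, Cxcl14 by 1.73 and the transmembrane chemokine gene Cxcl16 by 1.23, with an adjusted p of 0.0547 for Cxcl16 in the fit of all 11 libraries. Cxcl12, the homeostatic chemokine of stroma, fell by 0.86, from 437 ± 43.7 to 237 ± 31.4 CPM.

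Some genes of NF-kB regulators were also higher in batch 2, while activity of the pathway itself was not measured. Nfkbia, whose promoter is shown with its kappaB site, stood at 63.01, 74.9 and 74.9 CPM in batch 1 and 215, 265 and 275 CPM in batch 2 (log2 fold change 1.84, SE 0.13, adjusted p = 1.24e-10). Tnfaip3, the ubiquitin-editing inhibitor A20 (chosen after its values were seen), rose by 2.66 and the IkB family gene Nfkbiz by 1.58. Sod2, the mitochondrial superoxide dismutase, went from 80.4 ± 10.2 to 327 ± 58.5 CPM, Steap4, a metalloreductase, from 8.45 ± 4.50 to 139 ± 20.1 CPM, and Vcam1, an adhesion molecule for leukocytes, from 335 ± 29.2 to 668 ± 35.2 CPM (SD, n = 3 each). Other genes often counted with the same response did not pass: Icam1 was at 67.7, 86.96 and 70.9 and 76.9, 89.4 and 74.8 CPM, Csf1 had a log2 fold change of -0.07 and Irf1 of -0.01. All 3, chosen after their values were seen, overlapped between the sets.

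The prostaglandin E2 route moved at several steps. Ptgs2, the inducible cyclooxygenase, rose from 147, 159.8 and 124 CPM to 1822, 2134 and 1486 CPM (log2 fold change 3.68, SE 0.14, adjusted p = 5.13e-15). Ptges, the synthase that makes prostaglandin E2, followed at 247, 256 and 242 CPM in batch 1 and 1062, 1134 and 1131 CPM in batch 2 (log2 fold change 2.18, SE 0.11, adjusted p = 5.46e-14). Pla2g4a, which frees arachidonic acid, rose by 1.62, while the thromboxane receptor gene Tbxa2r fell by 2.92, to between 3.08 and 6.53 CPM. Over the list of prostaglandin genes, of 13 tested members 6 rose, 1 fell and 6 did not pass, with a median log2 fold change of 0.41.

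Tested interferon-stimulated genes were mostly higher in batch 2: of 40 tested members 31 rose, 0 fell and 9 did not pass, with a median log2 fold change of 1.17. The list holds 50 genes, and those with too few counts were not tested. Members near the floor in batch 1, such as Rsad2, entered the test through batch 2 alone, which favours rises in this count. Ifi44 stood at 6.22, 5.66 and 4.03 CPM in WT 1, WT 3 and WT 4 and 50.04, 50.1 and 89.3 CPM in WT 5, WT 6 and WT 7 (log2 fold change 3.53, SE 0.31, adjusted p = 5.31e-09). Rsad2, the antiviral enzyme viperin whose ISRE is shown, was at 2.33, 2.12 and 0.805 CPM in batch 1 and 16.7, 25.4 and 46.7 CPM in batch 2 (log2 fold change 3.95, SE 0.50, adjusted p = 2.23e-06). WT 7 was the highest library for both. Isg15, a ubiquitin-like modifier shown for its 3 ISRE cores and chosen after its values were seen, was at 2.33, 4.24 and 7.25 CPM in batch 1 and 58.02, 67.1 and 132 CPM in batch 2 (log2 fold change 4.18, SE 0.48, adjusted p = 0.000156). Rtp4, Gbp3, Oasl2, Trim30a and the RNA sensor gene Rigi rose by 3.06, 2.24, 2.06, 2.88 and 1.13. Without WT 7 the list had 26 calls, all higher, and a median of 1.04, and with length offsets 20, all higher; Rigi then stood at 0.67 and was not called. Lyz2 and Adgre1 were highest in WT 7, the library where Ifi44, Rsad2 and Isg15 were highest. The part of macrophage RNA in WT 7 was not tested. In WT 5 and WT 6, with Adgre1 at 0 and 3.08 CPM, Ifi44 was at 50.04 and 50.1 CPM.

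Genes of MHC class I presentation moved less. Over that list, of 17 tested members 7 rose, 0 fell and 10 did not pass, with a median log2 fold change of 0.38. B2m, the light chain of class I molecules, went from 394 ± 46.4 to 663 ± 79.3 CPM (log2 fold change 0.77, SE 0.12, adjusted p = 1.42e-05), and the non-classical genes H2-T22 and H2-T23, whose reads can be shared with other class I genes, rose by 1.08 and 1.10; with length offsets the adjusted p of H2-T23 was 0.0584. Calr, a chaperone of peptide loading and of the endoplasmic reticulum, rose by 0.80. Tap1, the peptide transporter, was at 26.4, 23.3 and 28.2 and 27.6, 20.04 and 31.2 CPM, with a log2 fold change of 0.02 (chosen after its values were seen). Without WT 6 the list held 4 calls in place of 7. Among complement genes more fell than rose: of 14 tested members 3 rose, 5 fell and 6 did not pass, with a median log2 fold change of -0.39. C2 fell by 1.84, C1ra by 1.16 and Serping1, the C1 inhibitor gene, by 0.64.

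**Figure D3:**
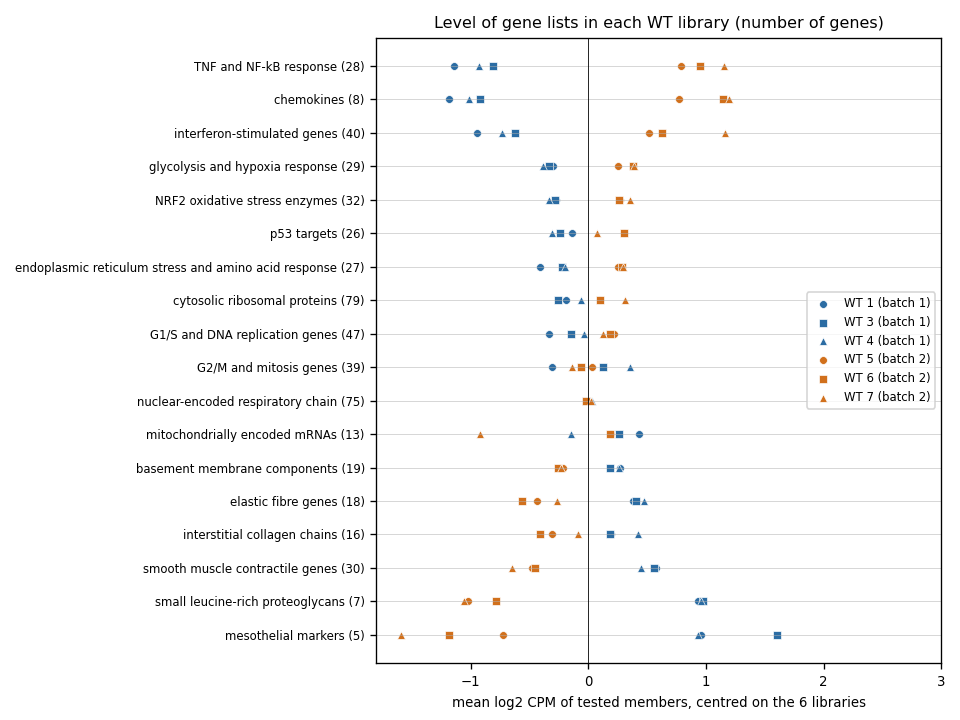
Each row gives the mean log2 CPM of a list's tested members in the 6 WT libraries, centred on their mean; blue marks batch 1 and orange batch 2, and the number of genes stands in brackets. The sets lie apart for the TNF, interferon and contractile lists, and overlap for mitosis genes, the respiratory chain and mitochondrial mRNAs, of which 3, 1 and 0 members were called.

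Contractile genes of smooth muscle and myofibroblasts were lower in batch 2: of 30 tested members 1 rose, 21 fell and 8 did not pass, with a median log2 fold change of -0.88. Acta2, smooth muscle alpha-actin, stood at 5284, 5165 and 4952 CPM in WT 1, WT 3 and WT 4 and 1326, 1229.6 and 1088 CPM in WT 5, WT 6 and WT 7 (log2 fold change -2.06, SE 0.10, adjusted p = 1.00e-13). Myh11, the smooth muscle myosin heavy chain, was at 302, 324 and 237 CPM in batch 1 and 31.9, 32.4 and 29.1 CPM in batch 2 (log2 fold change -3.18, SE 0.16, adjusted p = 7.47e-14). Both groups of 3 were tight and far from each other. Cnn1, calponin 1, fell from 519 ± 38.5 to 139 ± 14.1 CPM (SD, n = 3 each), Itga1, a collagen and laminin receptor subunit, from 167 ± 21.7 to 17.2 ± 5.44 CPM, and Tpm1, tropomyosin 1, from 3611 ± 141 to 1967 ± 261 CPM. Myl9, whose CArG box is shown and which was chosen after its values were seen, was at 1013, 943 and 931 CPM in batch 1 and 399.6, 331 and 319 CPM in batch 2 (log2 fold change -1.44, SE 0.11, adjusted p = 2.34e-10). The 1 member that rose was Tagln2 (0.74), a paralog of the smooth muscle gene Tagln, which fell by 1.50; both were chosen after their values were seen, as was Srf, the factor itself, at 0.29 and not called. The 6 smooth muscle markers that could be tested are all members of this list, so their fall is the same observation. WT 1, with Xist and Y-linked RNA like those of WT 5 and WT 6, had 5284 CPM of Acta2 and 302 CPM of Myh11, beside WT 3 and WT 4; the part of the sets' Xist and Y-linked make-up in the result was not tested.

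Targets of the mechanically regulated factors YAP and TEAD also tended to be lower: of 24 tested members 1 rose, 10 fell and 13 did not pass, with a median log2 fold change of -0.25. F3, tissue factor, fell by 1.23 (from 309 ± 41.2 to 130.0 ± 10.6 CPM), Igfbp3 by 1.47, Amotl2, itself a YAP inhibitor, by 0.86 and Rbms3 by 0.88. Yap1 and the partner genes Tead1 and Tead2 did not pass (-0.13, -0.07 and 0.02; chosen after their values were seen).

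Most interstitial collagen genes fell. In the list of interstitial collagen chains, of 16 tested members 2 rose, 10 fell and 4 did not pass, with a median log2 fold change of -0.71, and their summed mean CPM went from 14838 to 4971. Col1a1 stood at 2694, 3697 and 3945 CPM in WT 1, WT 3 and WT 4 and 1166, 1092 and 1156 CPM in WT 5, WT 6 and WT 7 (log2 fold change -1.58, SE 0.12, adjusted p = 5.10e-10), and Col5a2, a chain that sets fibril diameter, at 1739, 1773 and 1803 CPM in batch 1 and 542, 518 and 515 CPM in batch 2 (log2 fold change -1.73, SE 0.10, adjusted p = 1.21e-12). The transmembrane collagen gene Col13a1 was an exception and rose by 2.77, from 4.90 ± 2.74 to 32.9 ± 2.92 CPM. Among enzymes that process and cross-link collagen, of 23 tested members 3 rose, 8 fell and 12 did not pass, with a median log2 fold change of -0.15. Lox, lysyl oxidase, went from 558, 620.0 and 592 to 146, 132 and 138 CPM (log2 fold change -2.07, SE 0.11, adjusted p = 3.69e-13), the transglutaminase gene Tgm2 fell by 2.07, the procollagen protease gene Adamts2 by 1.23 and the prolyl hydroxylase gene P4ha3 from 25.5 ± 5.65 to 4.001 ± 1.56 CPM.

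Among the gene lists, elastic fibre genes had the largest share of members lower: of 18 tested members 1 rose, 13 fell and 4 did not pass, with a median log2 fold change of -0.77. The microfibril genes Mfap4 and Mfap5 fell by 2.41 and 1.50, Fbn1 and Fbn2, the fibrillins, by 1.00 and 1.57, and Fbln5, which aligns elastin, by 0.90; with length offsets Fbn2 stood at -1.25 and was not called (adjusted p = 0.118). Adamts10, a protease of microfibrils, was steady within sets at 201, 197 and 201 CPM in batch 1 and 52.2, 49.3 and 63.4 CPM in batch 2 (log2 fold change -1.85, SE 0.13, adjusted p = 1.11e-10), and Ltbp2, which binds to fibrillin, fell by 0.80. Of 7 small leucine-rich proteoglycans 4 fell, with a median of -2.04: Podn and Ogn, given above, Prelp (from 118 ± 15.6 to 28.6 ± 6.63 CPM) and Fmod, fibromodulin (from 26.3 ± 4.47 to 3.82 ± 2.09 CPM). The abundant members Dcn and Bgn, decorin and biglycan, did not pass, at -0.14 and -0.05 (chosen after their values were seen).

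Among basement membrane components, of 19 tested members 2 rose, 11 fell and 6 did not pass, with a median log2 fold change of -0.49. Col4a1 and Col4a2, the main type IV collagen chains, fell by 0.95 and 1.34, Nid2 by 1.29 and Sparc, which chaperones collagen, by 0.89; with length offsets 8 members were called, all lower. In the matricellular list, of 22 tested members 5 rose, 12 fell and 5 did not pass, with a median log2 fold change of -0.78. Its summed mean was 22187 CPM in batch 1 and 22759 CPM in batch 2, with Spp1 going from 578 ± 234 to 7503 ± 429.8 CPM and Thbs1 from 5772 ± 585 to 2699.8 ± 318 CPM. Sparcl1, an anti-adhesive relative of Sparc, fell from 524 ± 33.5 to 82.1 ± 3.61 CPM (log2 fold change -2.65, SE 0.12, adjusted p = 1.07e-14), and Vcan, the large proteoglycan versican, rose from 265 ± 27.6 to 792 ± 83.8 CPM (log2 fold change 1.60, SE 0.11, adjusted p = 7.87e-11). Postn, periostin, had 101 counts in batch 1 and 1 in batch 2, a ratio of 0.0107 with an exact 95% interval of 0.000269 to 0.0611 for counting error.

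Matrix-degrading enzymes showed rises in several members. Over metalloproteases and their inhibitors, of 20 tested members 7 rose, 5 fell and 8 did not pass, with a median log2 fold change of -0.25. Mmp10, stromelysin 2, was at 74.7, 57.3 and 67.6 CPM in batch 1 and 481, 634 and 404 CPM in batch 2 (log2 fold change 2.96, SE 0.16, adjusted p = 3.15e-11), the collagenase gene Mmp13 rose by 2.62, Mmp19 by 1.40 and the inhibitor gene Timp1 from 237 ± 6.21 to 575 ± 39.9 CPM. For plasminogen activators and serpins, of 19 tested members 9 rose, 4 fell and 6 did not pass, with a median log2 fold change of 0.45, with Thbd, the anticoagulant thrombomodulin, up by 1.40 and Serpinf1 by 1.19. Among 12 integrin subunits 5 rose and 3 fell, the median being 0.27. Itga8, a partner of nephronectin in lung mesenchyme, fell by 2.17, whereas Itgb3, a subunit of the osteopontin receptor, rose by 1.70 and the laminin receptor subunit gene Itga7 by 1.36; DESeq2 called 5 of the 12, as did the fit without WT 6, and length offsets left 4, without Itga7 (adjusted p = 0.0561).

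Growth factor genes changed in both directions. In the TGF-beta list, of 29 tested members 7 rose, 6 fell and 16 did not pass, with a median log2 fold change of 0.14. The ligand gene Tgfb3 fell from 411 ± 45.2 to 109.8 ± 17.2 CPM (log2 fold change -1.87, SE 0.13, adjusted p = 4.74e-11), and Inhba, an activin subunit, and its antagonist Fst each rose by 0.81. In the BMP list, of 22 tested members 3 rose, 9 fell and 10 did not pass, with a median log2 fold change of -0.41. Grem1, a secreted BMP antagonist, went from 217, 169 and 188 to 606, 739 and 832 CPM (log2 fold change 1.94, SE 0.13, adjusted p = 3.00e-11); Bmp2 rose by 2.08, Bmp3 fell as given above, and Bmper fell by 0.69. For PDGF, FGF, HGF and VEGF signalling, of 26 tested members 10 rose, 7 fell and 9 did not pass, with a median log2 fold change of 0.20. Fgf7 and Hgf, both signals to epithelium, rose by 1.57 and 1.70. Vegfd, a lymphatic growth factor, dropped from 227, 275 and 242 CPM to 18.9, 12.3 and 27.01 CPM (log2 fold change -3.70, SE 0.18, adjusted p = 1.00e-13), and Nrp1, a VEGF co-receptor, fell by 1.48.

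In the Wnt list, of 23 tested members 2 rose, 10 fell and 11 did not pass, with a median log2 fold change of -0.68. Wnt2, a ligand of the lung mesenchyme, stood at 150.1, 107 and 127 CPM in batch 1 and 18.1, 18.5 and 15.6 CPM in batch 2 (log2 fold change -2.84, SE 0.19, adjusted p = 2.54e-11). The inhibitor Sfrp1 and the nuclear factor Tcf7l2 fell by 1.01 and 1.12, and the inhibitor Frzb rose by 1.36. Over IGF genes, of 19 tested members 5 rose, 7 fell and 7 did not pass, with a median log2 fold change of 0.02. Igf1 fell from 116 ± 18.6 to 32.4 ± 6.34 CPM (log2 fold change -1.82, SE 0.18, adjusted p = 2.21e-08), and Igfbp5, a binding protein, rose from 469 ± 49.1 to 2143 ± 277 CPM (log2 fold change 2.22, SE 0.12, adjusted p = 2.47e-13). Stc1, a secreted inhibitor of the protease that cleaves IGF binding proteins, rose from 19.1 ± 2.29 to 157 ± 14.3 CPM (log2 fold change 3.06, SE 0.17, adjusted p = 4.79e-13). All 10 calls among 20 imprinted growth genes were lower, with a median of -0.58; the growth inhibitor Grb10 fell by 1.65, Plagl1 by 2.24, Igf2r by 1.40 and Sgce by 1.01. Of 30 lung mesenchyme transcription factors 3 rose and 9 fell, beside 11.9% and 10.7% of all genes tested, with a median of -0.23. Nfib and Foxf2, both needed for lung development, fell by 1.03 and 1.13, while Prrx1 and Twist2 rose by 1.04 and 2.78.

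**Figure D4:**
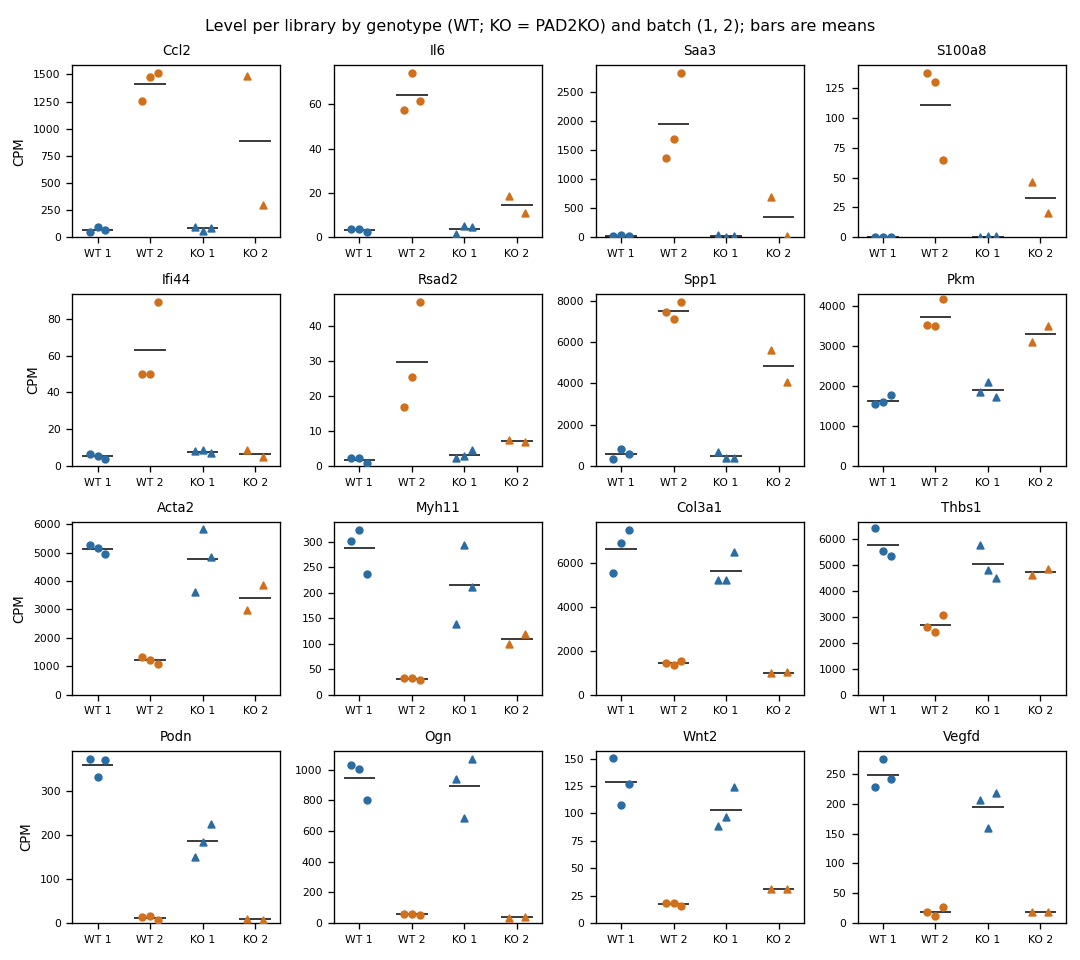
Each panel gives the CPM of a gene in the 11 libraries by genotype and batch, batch 1 in blue and batch 2 in orange, with circles for WT, triangles for PAD2KO and a bar at the mean. In WT the sets do not overlap for any of the 16 genes; in PAD2KO the batches lie apart for Spp1, Col3a1, Podn and Ogn, and overlap for Ifi44.

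Glycolytic genes were higher in batch 2. In the list of glycolysis and hypoxia genes, of 29 tested members 17 rose, 0 fell and 12 did not pass, with a median log2 fold change of 0.89. Pgk1 and Aldoa, enzymes of the pathway, rose from 322 ± 31.4 to 751 ± 23.9 CPM and from 867 ± 62.99 to 1677 ± 98.96 CPM (SD, n = 3 each), and Slc16a3, the lactate exporter, from 25.5 ± 4.68 to 134 ± 18.7 CPM (log2 fold change 2.40, SE 0.18, adjusted p = 1.31e-10). The respiratory chain showed no such difference: of 75 nuclear-encoded genes 1 was called, Ndufa6 at 0.38, which did not pass in 8 of 15 alternatives, and the median was -0.00284. Of 13 mitochondrially encoded mRNAs edgeR and DESeq2 called 0; 3 had an unadjusted p under 0.05, 2 were called without the low-count filter and 3 without WT 4, all lower, and WT 7 had the lowest level; Cox1 mRNA, the gene COX1 of the table, was at 4417, 4050.4 and 3023 and 3144, 3259 and 2401 CPM.

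Lists of stress and hormone response differed in how many members were called. For NRF2-driven enzymes, of 32 tested members 18 rose, 3 fell and 11 did not pass, with a median log2 fold change of 0.53. Gsto1, a glutathione transferase, was at 146, 158 and 160.2 CPM in batch 1 and 1048, 1038 and 886 CPM in batch 2 (log2 fold change 2.70, SE 0.11, adjusted p = 3.58e-15), and Nqo1, a quinone reductase, rose by 2.39 and Prdx6 by 1.57. Gpx3, the secreted glutathione peroxidase, fell by 1.28. In the list of endoplasmic reticulum stress and amino acid genes, of 27 tested members 17 rose, 0 fell and 10 did not pass, with a median log2 fold change of 0.56; the chaperone gene Hsp90b1 rose by 0.61, Pdia6 by 0.61, the serine synthesis gene Psat1 by 0.90 and the cystine carrier gene Slc7a11 by 2.64. Among heat shock chaperones, of 21 tested members 9 rose, 4 fell and 8 did not pass, with a median log2 fold change of 0.33: Hsph1 and the co-chaperone gene Stip1 rose by 0.95 and 0.78, and the small heat shock genes Cryab and Hspb1 fell by 1.22 and 0.81. Metallothionein genes Mt1 and Mt2 rose by 0.77 and 1.26, highest in WT 7 at 448 and 187 CPM, and 3 of 13 genes of zinc regulation were called, a share like the 22.6% over all genes tested, with a median of 0.18; without WT 1 the adjusted p of Mt1 was 0.0551. Of 13 glucocorticoid-responsive genes 5 rose and 1 fell, with a median of 0.06; Sgk1 rose by 1.10, Errfi1 by 1.36, Angptl4 by 2.17 and Hsd11b1, which activates cortisone, by 3.60.

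Immediate early transcription factors did not move as a block: of 23 tested members 7 rose, 5 fell and 11 did not pass, with a median log2 fold change of 0.04. Fosl1, an AP-1 subunit, went from 8.21 ± 4.12 to 87.8 ± 8.30 CPM and Ier3 from 139 ± 17.99 to 630.3 ± 54.01 CPM, while Fos fell from 779 ± 28.1 to 439 ± 21.2 CPM (log2 fold change -0.81, SE 0.10, adjusted p = 1.12e-06). Nr4a2, an orphan nuclear receptor, rose by 3.07; with length offsets it stood at 1.00 and was not called, and the list held 7 calls.

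Calls among cell cycle genes were mostly of the G1/S phase. Among G1/S and DNA replication genes, of 47 tested members 16 rose, 2 fell and 29 did not pass, with a median log2 fold change of 0.35. Rrm2, the ribonucleotide reductase subunit, stood at 110.5, 124 and 124 CPM in batch 1 and 263, 293 and 189 CPM in batch 2 (log2 fold change 1.08, SE 0.14, adjusted p = 1.92e-06), and Cdc6 and Ccne1 rose by 1.74 and 1.09. Of 39 mitosis genes 3 fell, Nusap1 (-0.76), Ccnb2 (-0.49) and Anln (-0.38), and 0 rose, beside 10.7% and 11.9% of all genes tested. DESeq2 called 0 of the list and the fit without WT 1 called 10, all lower. In all 3 of these genes the call was lost in 5 to 8 alternatives, DESeq2 and length offsets among them. For p53 targets, of 26 tested members 17 rose, 1 fell and 8 did not pass, with a median log2 fold change of 0.65. Cdkn1a, the cell cycle inhibitor p21, rose from 252 ± 34.9 to 439.5 ± 8.79 CPM, Mdm2, the ligase that limits p53, from 150.0 ± 5.83 to 302 ± 30.8 CPM, and Bax by 0.67. Cdkn1a is also counted among the G1/S genes that rose, since that list holds inhibitors of the cell cycle too. Of 10 histone genes 1 rose, the variant gene H2az1 (1.29), a share like the 11.9% over all genes tested, the median being 0.03. With length offsets the G1/S list held 9 calls and the p53 list 11, without Bax (adjusted p = 0.0615).

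Ribosomal protein genes showed a small rise shared by many members: of 79 tested members 42 rose, 0 fell and 37 did not pass, with a median log2 fold change of 0.34. Rplp0 rose by 0.50, and Rps18 and Rps20 by 0.49 and 0.53. The count depended on single libraries and on length, with 11 calls without WT 3, 25 without WT 1 and 18 with length offsets, where the adjusted p of Rps20 was 0.14. Short genes as a whole leaned upwards: in the tertile of shortest genes 468 were higher and 234 lower, in that of the longest 344 and 489. The share of counts from Rn18s, an 18S ribosomal RNA gene, was 10.9% ± 0.980 in batch 1 and 9.48% ± 0.420 in batch 2 (SD, n = 3 each; two-sided exact permutation p = 0.1, the smallest possible). The part of gene length or of Rn18s in the ribosomal protein result was not tested.

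Lipid genes changed individually. In the list of cholesterol and fatty acid synthesis, of 35 tested members 12 rose, 3 fell and 20 did not pass, with a median log2 fold change of 0.14. Scd1, the desaturase that makes oleate, went from 165 ± 9.37 to 387 ± 12.5 CPM (log2 fold change 1.25, SE 0.11, adjusted p = 3.11e-09), Fasn and Sc5d rose by 0.74 and 0.69, and Fads2 fell by 0.86. DESeq2 called 9 of the list and length offsets left 8, without Fasn (adjusted p = 0.113). Among lipid droplet genes, of 17 tested members 8 rose, 2 fell and 7 did not pass, with a median log2 fold change of 0.49: Plin2, a droplet coat protein gene, rose by 0.91, Dgat2 by 1.86 and the cholesterol exporter gene Abca1 by 0.80, while Apoe fell from 1559.5 ± 119 to 409.8 ± 82.3 CPM (log2 fold change -1.91, SE 0.12, adjusted p = 3.97e-11). Of 33 lysosome and autophagy genes 8 fell and 3 rose, Ctsl (0.88), Gla (1.32) and Npc2 (0.59), with a median of -0.06. Over all genes tested 10.7% were lower and 11.9% higher, so the rises were no larger a share than elsewhere.

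PAD2KO fibroblasts gave a separate set of libraries from the same batches. Fitted over all 11 libraries, their batch 2 differed from their batch 1 in 1863 of 10731 genes (17.4%). Of the 2260 genes called in WT, 2055 (90.9%) had the same sign in PAD2KO, and 1100 were also called there in that direction, against 19 called in the opposite one. Across the 9994 genes the fold changes of the 2 genotypes had a Pearson correlation of 0.726, given as a description: genes are not independent, and both genotypes share the batches. Col3a1 was at -2.48 in PAD2KO, Podn at -4.37, Ogn at -4.46, Spp1 at 3.38, Ptges at 2.21 and Il11 at 5.21, each called there as well. TNF and NF-kB genes had a PAD2KO median of 0.92, with 12 of 28 called, all higher.

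Some groups differed between the genotypes by the test of the difference itself, the batch difference in WT minus that in PAD2KO, which 155 of 10731 genes passed (1.44%), 91 higher in WT (0.848%) and 64 lower (0.596%). Of 40 interferon-stimulated genes 13 passed, all with the higher value in WT; the list's median in PAD2KO was -0.31, and no member rose there while 5 fell. Ifi44 had 3.53 in WT and -0.16 in PAD2KO, a difference of 3.71 (SE 0.57, adjusted p = 0.000589). B2m differed by 1.13 (SE 0.18, adjusted p = 0.000592). Contractile genes went the other way, with 11 of 30 past the test, all lower in WT: Acta2 had -2.06 in WT and -0.44 in PAD2KO, and Cnn1 -1.87 and -0.34. Of 35 cholesterol and fatty acid genes 9 differed, all higher in WT; in PAD2KO 18 of them fell and 1 rose. For TNF and NF-kB genes 0 of 28 members passed the difference test in edgeR, with 9 at an unadjusted p under 0.05 and 1 past the test in DESeq2; for chemokines 0 of 8 passed, with 2 at an unadjusted p under 0.05 and 0 in DESeq2. That does not show that they were equal: the Il6 difference was 2.29 (SE 0.61, adjusted p = 0.0552).

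The counts past the difference test rest on few libraries. PAD2KO batch 2 holds 2, and these differed: Ccl2 was at 1484 CPM in PAD2KO 6 and 294 CPM in PAD2KO 7, and Saa3 at 689 and 25.5 CPM. Over all genes 34 passed without PAD2KO 7, 222 without PAD2KO 6, 91 without WT 3 and 97 without PAD2KO 3. Interferon-stimulated genes then numbered 4 without PAD2KO 7 and 8 without WT 1, with 16 without WT 7; contractile genes numbered 4 without PAD2KO 7 and 7 without PAD2KO 3; cholesterol and fatty acid genes numbered 1 without PAD2KO 7. With length offsets the 3 lists had 3, 4 and 2 members past the test. TNF and NF-kB genes past it numbered 7 without PAD2KO 6, 6 of them higher in WT, and chemokines 5, all higher in WT. Padi2, the targeted gene, had 0 to 2 counts in each WT library and 0 to 4 in each PAD2KO library, too few to check the genotype labels.

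**Figure D5:**
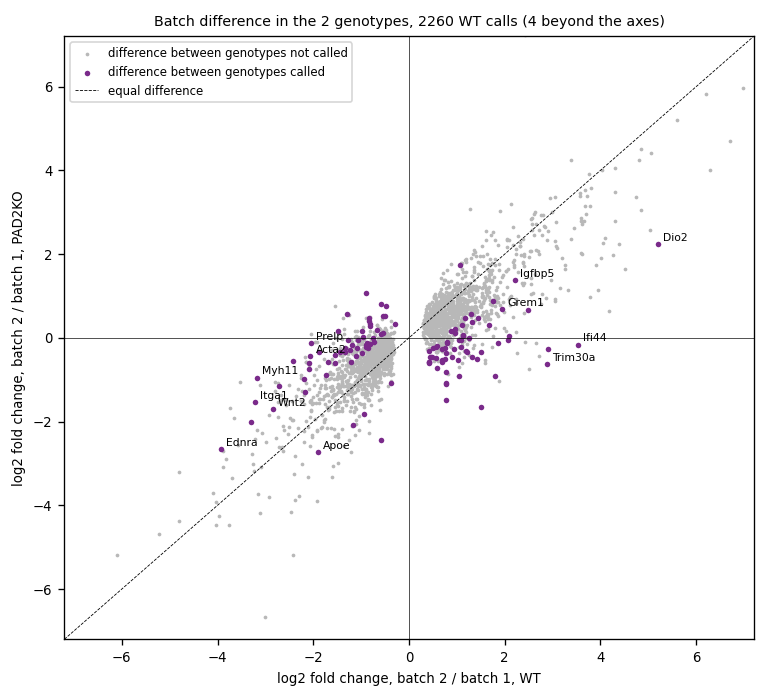
Points are the 2260 genes called in WT, with their log2 fold change of batch 2 over batch 1 in WT on the x axis and in PAD2KO on the y axis; purple points also passed the test of the difference between genotypes, which uses the same WT libraries. The dashed line marks equal changes. In PAD2KO Ifi44 lies near 0 and Trim30a below 0, and 4 genes lie beyond the axes.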

How the data were processed

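Bulk RNA-seq libraries were analysed. Per the file headers the authors deposited estimated counts, abundances (TPM) and effective gene lengths; the estimated counts carry fractions and sum to different totals per library, and column headers name them counts, abundance and length. The deposited TPM values served only to weight lengths. Fastp, Salmon 1.3.2, DESeq2 1.46.0 and the build GRCm39 are named in the submitters' processing notes; annotation and strand setting are not given in the sources used here. Per the labels' protocols, SMARTer libraries were made in a SmartSeq2 workflow, without molecular identifiers mentioned.

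Of 56065 entries, 23133 carry no symbol and were left out: 3.89% to 4.63% of counts in WT batch 1 and 5.00% to 6.40% in WT batch 2, shares that did not overlap (exact permutation p = 0.1, the smallest possible). The rest were summed to 32868 symbols and rounded. WT batch 2 was tested against WT batch 1 with edgeR 4.0.16 in R 4.3.3 (TMM, filterByExpr, robust quasi-likelihood fit, Benjamini-Hochberg adjustment at 0.05); the PAD2KO batch difference and the difference between genotypes came from the same test over 4 groups. The filter keeps genes with enough counts in as many libraries as 1 set holds, so a gene low in batch 1 may enter through batch 2 alone, or the reverse. Counts over tested list members are subject to this. Standard errors are the fold change over the root of F. Scripts were tested on simulated counts. Alternatives were DESeq2 1.42.0, other size factors and filters, length offsets, all 11 libraries, and leaving out each library. Sums and shares were compared by two-sided exact permutation (SciPy 1.17.1).

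The comparison, 42 gene lists and 12 marker lists were chosen with earlier results of these data known, so counts over a list are descriptions. Some list members that the rule named are not reported here. The rule names the 10 largest fold changes each way with at least 20 CPM on average and no overlap between sets, the 5 largest CPM differences each way, and by p up to 4 members of each list (8 of the 4 lists with the largest share called). WT 5 and WT 6 were the most alike pair (chi-square per degree of freedom 1.51, other pairs 2.10 to 3.04) and were kept as separate libraries.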

Additional observations from a re-analysis of the deposited data

Results flagged for a closer look

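Among genes named by the rule, 34 had a batch difference in WT that differed from that in PAD2KO by edgeR's test of the difference (adjusted p under 0.05 over 10731 genes, of which 1.44% passed). Values are the log2 fold change of batch 2 over batch 1 in WT minus that in PAD2KO, so a positive value stands for a higher one in WT. Groups of 3 libraries or fewer were not searched for outlying libraries.

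Positive differences were found for 18 genes. Interferon-stimulated and class I genes were Ifi44 (3.71), Trim30a (3.52), Oasl2 (2.13) and B2m (1.13). Genes of lipid handling and lysosomes were Dgat2 (1.99), Gla (1.78), Scd1 (1.25), Sc5d (0.97), Abca1 (0.93), Apoe (0.82), Npc2 (0.78) and Ctsl (0.73). The others were Dio2 (2.96), Mt1 (1.88), Grem1 (1.27), Igfbp5 (0.84), Timp1 (0.74) and Fth1 (0.71). Apoe fell in both genotypes, by more in PAD2KO.

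Negative differences were found for 16 genes. Contractile genes and integrin subunits were Myh11 (-2.23), Itga1 (-1.69), Acta2 (-1.62), Cnn1 (-1.54), Itga8 (-0.87) and Tpm1 (-0.61). Matrix genes were Prelp (-1.90), Col4a2 (-1.09), Thbs1 (-1.02), Col4a1 (-0.97), Col5a2 (-0.83) and Sparc (-0.68). The remaining ones were Ednra (-1.25), Wnt2 (-1.13), F3 (-0.93) and Fos (-0.67).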

How the results depend on the processing

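The number of genes called between the WT sets stayed within 1.5 times of 2260 under other size factors (2262 and 2260), other count filters (2421 and 2073), the fit of all 11 libraries (2315), removal of Rn18s and mitochondrial genes (2273) and thinning to the smallest library (1952, chosen after seeing the data). It was 1396 by DESeq2, 1262 with effective length offsets and 939 when a size of at least 1 was also asked for, a limit chosen after seeing the data. With length offsets, standard errors of the calls were 1.20 times as large at the median and 15 calls changed sign. Leaving out each library in turn gave 1693 to 2310 calls, and 1331 of the 2260 were kept in all 6 of these fits. Genes past the test between genotypes numbered 155; without the low-count filter there were 323, with length offsets 26, and with each library left out 34 to 222, where the fits without PAD2KO 6 or 7 assume that the lone library varies like the other groups. Of the 2260 calls, 936 were kept in every alternative. Of 180 named genes that were called, 163 passed in every alternative that tested them and none reversed. Named genes were chosen for large changes or small p, so their share kept does not speak for the calls at large. No paired analysis was possible because the WT sets share no replicate numbers. Depth limits low genes: 14.9% of genes in the tertile of lowest mean CPM were called and 33.6% in that of the highest.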

Other observations

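Several gene families held members with large rises; they were chosen after their values were seen, and no family was tested as a whole. Steroid genes were among them: Star, which carries cholesterol into mitochondria, went from 11.8 ± 2.01 to 99.00 ± 41.8 CPM (log2 fold change 3.10, SE 0.37, adjusted p = 0.000213), and Akr1c18, a hydroxysteroid dehydrogenase, from 5.42 ± 3.97 to 112 ± 42.4 CPM (log2 fold change 4.30, SE 0.45, adjusted p = 0.000126), while Hsd3b7, of bile acid synthesis, fell by 0.67. In the prolactin family, Prl2c3, a proliferin, rose by 4.30; its near-copy Prl2c2 was at 1.56, 42.4 and 23.4 CPM in batch 1 and 260.4, 139 and 559 CPM in batch 2 and did not pass (adjusted p = 0.0655), and reads can be split between them.

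Of 10 genes of the TNF receptor superfamily 6 rose and 1 fell, beside 11.9% and 10.7% of all genes tested. Tnfrsf9, the T cell co-stimulator 4-1BB, was at 0.778, 1.41 and 0.805 CPM in batch 1 and 36.99, 31.6 and 40.5 CPM in batch 2 (log2 fold change 5.04, SE 0.41, adjusted p = 8.45e-10), the decoy receptor genes Tnfrsf22 and Tnfrsf23 rose by 2.23 and 1.80, and the TNF receptor genes stood at -0.34 (Tnfrsf1a, not called) and 0.57 (Tnfrsf1b, called). Il33, an alarmin, went from 141 ± 14.9 to 267 ± 69.5 CPM (log2 fold change 0.95, SE 0.16, adjusted p = 0.000338), and the gene of its receptor, Il1rl1, was at 7.78, 62.9 and 45.1 CPM in batch 1 and 402, 345 and 653 CPM in batch 2 (log2 fold change 3.59, SE 0.65, adjusted p = 0.0245). Tnfrsf1b and Il1rl1 belong to the TNF and NF-kB list and were counted there. S100b, a calcium-binding protein best known from glia, was at 17.1, 14.8 and 14.5 CPM in batch 1 and 113, 103 and 58.2 CPM in batch 2 (log2 fold change 2.60, SE 0.24, adjusted p = 1.70e-08), while the Schwann cell gene Sox10 had 0 counts in all 6 WT libraries.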
